A study of Mus musculus with 7 samples.

Results

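The receptors described here are G protein-coupled receptors, proteins of the cell surface through which gut hormones, glucagon, fatty acids and their derivatives, acetylcholine, noradrenaline, galanin and somatostatin act on the islets of Langerhans. They were fixed as a list of 10 genes, of which 7 encode receptors that promote insulin secretion (Glp1r, Gipr, Gcgr, Ffar1, Ffar4, Gpr119 and Chrm3) and 3 encode receptors that restrain it (Adra2a, Galr1 and Sstr3). Each was taken from the array rows annotated with exactly 1 gene symbol, by the row with the highest mean. Of the 10 genes 8 were found among the 14807 named genes, each with 1 probe set, namely the 7 stimulatory receptors and Sstr3. Adra2a and Galr1 were not analysed here, so Sstr3 alone stood for the inhibitory class.

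RNA was measured on Affymetrix arrays in isolated pancreatic islets of 7 mouse samples. The 3 knockout samples, numbered 5 to 7, came from mice with a deletion of FoxO1, FoxO3 and FoxO4 specific to the insulin-producing beta cells, and the 4 control samples, numbered 1 to 4, from their wild-type littermates. All were of the mixed background 129 x FVBn x C57BL/6, and cohorts were matched for age and sex, without the age or sex being stated. The labels do not name the line that drives the beta cell deletion, and a further mark in the knockout titles was not interpreted. Whether a sample was 1 animal or a pool is not stated, so the spread behind each p-value is that of these samples and may be technical. Values are log2 values made by the RMA method, differences are knockout minus control on that log2 scale, and the number of arrays limits the precision. The brightness of a probe set depends on its probes, so levels are compared between samples and not between genes.

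Glucagon-like peptide 1 and glucose-dependent insulinotropic polypeptide, the incretins, are released from the gut after a meal and amplify glucose-stimulated insulin secretion by way of receptors that couple to the stimulatory G protein, adenylyl cyclase and cyclic AMP. The fatty acid receptor FFAR1 and the muscarinic receptor M3 act mainly through the G protein Gq, phospholipase C and release of stored calcium. Receptors that couple to inhibitory G proteins, such as those for somatostatin, noradrenaline and galanin, lower cyclic AMP and hold secretion back. FoxO proteins are transcription factors that leave the nucleus when insulin signalling phosphorylates them.

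The samples were not uniform within the control group. Controls 3 and 4 lay at 43.2 and 30.3 on the first principal component of all genes, against -29.0 to -3.40 for the other 5 samples. The component accounted for 64.7% of the variance. The upper quartile over all probe sets was 8.63 and 8.81 in controls 3 and 4, against 8.88 to 8.95 in the other 5. The part of this in the differences was not tested. Values without these 2 controls are therefore given beside results that they move. The beta cell markers Ins2 (12.79 to 13.22), Iapp (13.61 to 13.80) and G6pc2 (12.81 to 13.66) were bright in all 7 samples, as was the alpha cell hormone gene Gcg (13.53 to 13.64). The deleted genes were a weak check of the labels, since other islet cells keep them. Foxo4 differed by -0.47 (SE 0.16) and Foxo3 by -0.16 (SE 0.11), both without overlap between the groups, and Foxo1 by -0.26 (SE 0.17) with overlap. In limma their adjusted p values were 0.362, 0.486 and 0.490, so none of the 3 was called. Of all genes 1.94% were lower without overlap, and 6.15% against controls 1 and 2 alone. Set against controls 1 and 2 alone, Foxo1 did not overlap either, at -0.50 (SE 0.15), while Foxo4 was at -0.55 and Foxo3 at -0.12, and the adjusted p of Foxo1 was 0.951 there.

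Upstream sequence is shown for Glp1r and Gpr119, the members with the largest positive differences. Both runs hold the 250 bases before the annotated start, taken from RefSeq on GRCm38.p6, with Glp1r on the plus strand at chr17:30901617-30901866 and Gpr119 on the minus strand at chrX:48674479-48674728. Capitals mark matches to the GC box GGGCGG, a binding sequence of Sp1 family factors, and to TGACG, the half-site of the cyclic AMP response element, on either strand.
Glp1r: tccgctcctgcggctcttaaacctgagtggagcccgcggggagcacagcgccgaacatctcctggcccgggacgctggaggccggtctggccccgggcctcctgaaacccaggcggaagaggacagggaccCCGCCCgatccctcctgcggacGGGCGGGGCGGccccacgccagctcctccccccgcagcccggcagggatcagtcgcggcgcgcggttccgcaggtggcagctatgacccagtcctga
Gpr119: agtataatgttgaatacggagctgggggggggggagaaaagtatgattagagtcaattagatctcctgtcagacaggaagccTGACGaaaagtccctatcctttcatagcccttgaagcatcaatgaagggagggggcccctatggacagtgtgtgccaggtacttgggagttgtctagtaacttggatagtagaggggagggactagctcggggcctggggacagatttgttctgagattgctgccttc
The Glp1r window had 73.2% G and C and held 3 GC boxes, of which the pair nearest the start overlap each other. The Gpr119 window had 50.4% G and C and held 1 half-site. The FoxO element GTAAACA, searched on both strands, was in 0 of the 7 measured members with an upstream window in the table, while 3.17% of all 32851 windows of this length held it. The half-site was in 2 of the 7 members and 17.8% of all windows, and the GC box in 3 of the 7 and 32.7%. These matches describe letters in a short window and say nothing of binding.

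No receptor gene passed the test. In limma's moderated test, adjusted over all 14807 genes, 0 of 8 members were past the threshold of 0.05 in either direction, where 0.00675% of all genes were called higher and 0% lower. With the unadjusted p in place of the adjusted one there were again 0 of 8 under 0.05, in limma and in an unmoderated test. By that measure 11.6% of all genes were on the higher side and 2.14% on the lower in limma. In the unmoderated test 866 of the 14807 genes were on the higher side and 238 on the lower. The groups overlapped for all 8 members, where 8.99% of all genes were higher and 1.94% lower without overlap. Of the 8 differences 5 were positive and 3 negative, from -0.27 for Gipr to 0.35 for Glp1r, with a median of 0.06. Over all genes 68.4% of differences were positive and the median was 0.08. Because islets hold several cell types, fewer cells of a type and less RNA per cell cannot be told apart in any of these values.

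**Figure D1:**
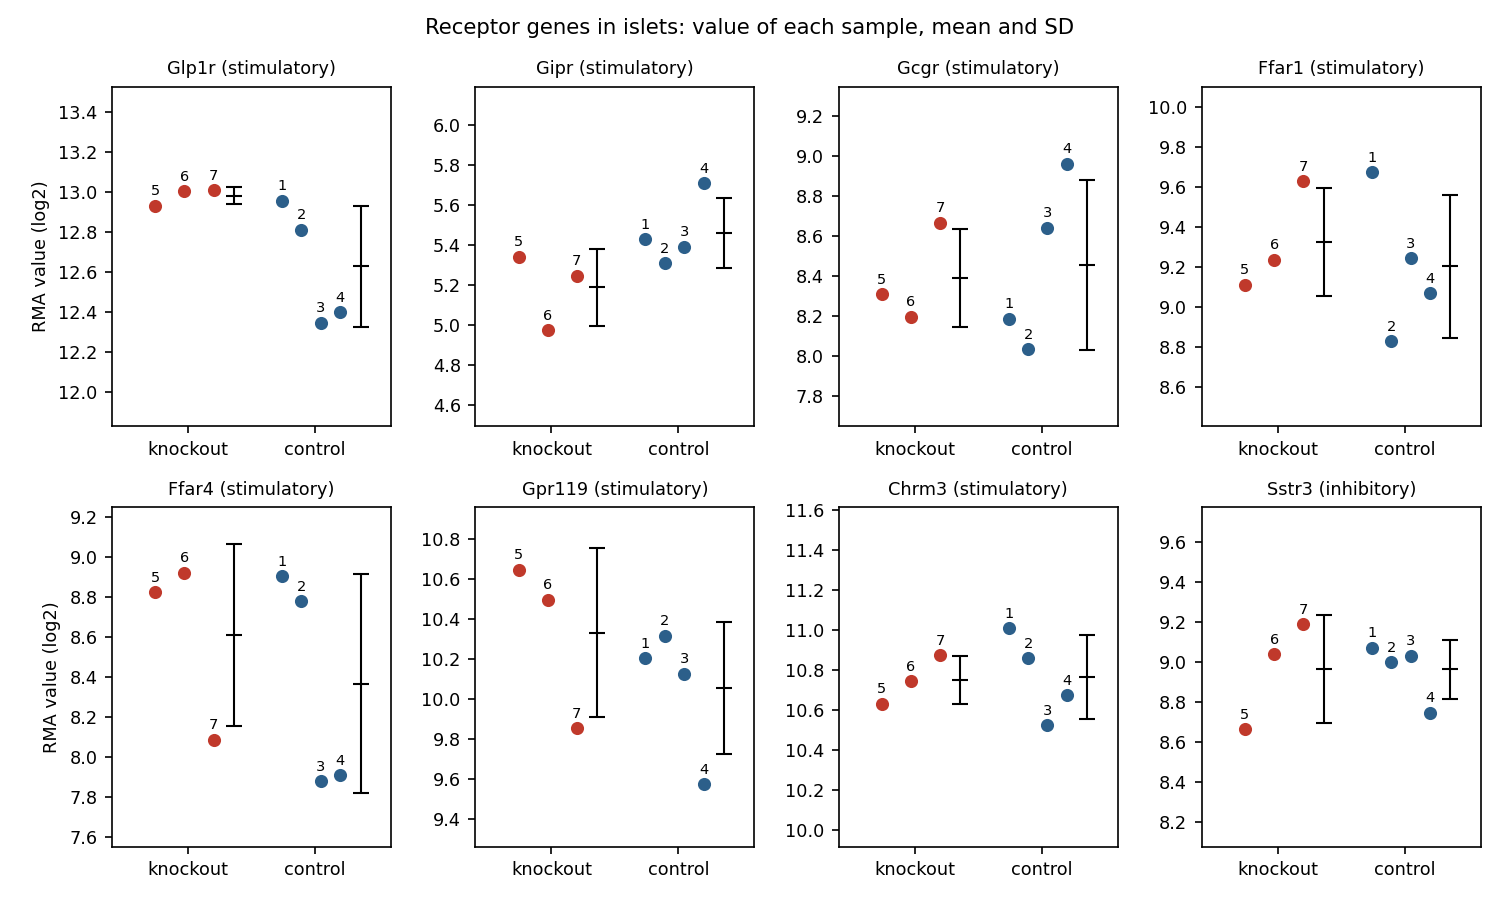
Log2 RMA value of each measured receptor gene (vertical axis, a different origin but the same span in every panel) in knockout and control islets, with sample numbers beside the points and the mean and SD of each group as a bar (n = 3 knockout, n = 4 control). Values of the groups overlap in every panel, and controls 3 and 4 lie below all other samples for Glp1r and Ffar4.

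Glp1r, the receptor of glucagon-like peptide 1 and the target of the drugs that mimic it, had the largest difference among the members. It was at 12.93, 13.01 and 13.01 in knockouts 5, 6 and 7, and at 12.96, 12.81, 12.35 and 12.40 in controls 1 to 4 (probe set 6849762). The knockout samples lay close together, whereas controls 3 and 4 were below all other samples and control 1 lay among the knockouts. Knockout islets averaged 12.98 ± 0.04 (SD, n = 3) and control islets 12.63 ± 0.30 (SD, n = 4). The difference of 0.35 (SE 0.16), a fold of 1.28, had a 95% interval of -0.02 to 0.73 and did not pass (limma, adjusted p = 0.370). Without controls 3 and 4 it was 0.10 (SE 0.11, adjusted p = 0.975). This probe set ranked at percentile 99.8 of all genes by mean value, and a bright probe set can understate differences.

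Gipr, the receptor of the other incretin, had the largest negative difference. It was at 5.34, 4.97 and 5.25 in knockouts 5, 6 and 7, and at 5.43, 5.31, 5.39 and 5.71 in controls 1 to 4 (probe set 6965758). Knockouts 6 and 7 were below all 4 controls, and knockout 5 lay between controls 2 and 3. Knockout islets averaged 5.19 ± 0.19 (SD, n = 3) and control islets 5.46 ± 0.17 (SD, n = 4). The difference of -0.27 (SE 0.13) had a 95% interval of -0.58 to 0.04 (limma, adjusted p = 0.384). Gipr stayed negative without controls 3 and 4, at -0.18 (SE 0.14, adjusted p = 0.951). Its probe set was dim, at percentile 19.3 by mean value, and RMA gives no call of whether a dim probe set is above background.

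Gcgr, the glucagon receptor, which raises cyclic AMP in beta cells that lie beside glucagon-secreting alpha cells, changed sign with the choice of controls. It was at 8.31, 8.20 and 8.67 in knockouts 5, 6 and 7, and at 8.19, 8.03, 8.64 and 8.96 in controls 1 to 4 (probe set 6785450). Knockout 7 and controls 3 and 4 were the 3 highest samples. Over all samples the difference was -0.06 (SE 0.23, 95% interval -0.60 to 0.47, limma, adjusted p = 0.926). Without controls 3 and 4 it was 0.28 (SE 0.16, adjusted p = 0.951), with the 3 knockouts above both remaining controls, a separation that 13.0% of all genes showed upward and 6.15% downward in that comparison. The ligand genes were nearly level. Gcg, which encodes glucagon and glucagon-like peptide 1, differed by 0.02 (SE 0.08), and Gip by -0.01 (SE 0.11). The Gcg probe set ranked at percentile 99.98 of all genes by mean value, so its difference may be understated.

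Receptors of fatty acids and lipid amides also varied mostly within groups. Ffar1, the receptor of long-chain fatty acids on beta cells, was at 9.11, 9.24 and 9.63 in knockouts 5, 6 and 7, and at 9.68, 8.83, 9.25 and 9.07 in controls 1 to 4 (probe set 6966320). The lowest and the highest sample were both controls. The difference was 0.12 (SE 0.21, 95% interval -0.36 to 0.60, limma, adjusted p = 0.835), and 0.07 (SE 0.26) without controls 3 and 4.

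Ffar4, a second receptor of long-chain fatty acids that in mouse islets is found mainly on the somatostatin-secreting delta cells, was at 8.82, 8.92 and 8.09 in knockouts 5, 6 and 7. In controls 1 to 4 it was at 8.90, 8.78, 7.88 and 7.91 (probe set 6869543). Knockout 7 and controls 3 and 4 made up a low set and the other 4 samples a high set, so each genotype was on both sides. Its spread within groups, a pooled SD of 0.51, was at percentile 96.4 of all genes, the widest of the 8 members. The difference was 0.24 (SE 0.32, 95% interval -0.49 to 0.97, limma, adjusted p = 0.767), and -0.23 (SE 0.24, adjusted p = 0.968) without controls 3 and 4.

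Gpr119, a receptor of lipid amides such as oleoylethanolamide that raises cyclic AMP, was at 10.65, 10.50 and 9.85 in knockouts 5, 6 and 7, and at 10.21, 10.32, 10.13 and 9.57 in controls 1 to 4 (probe set 7016726). Knockouts 5 and 6 were above every control, while knockout 7 was below 3 of the 4. The difference was 0.28 (SE 0.24, 95% interval -0.26 to 0.82, limma, adjusted p = 0.611), and 0.07 (SE 0.23) without controls 3 and 4.

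Chrm3, the muscarinic receptor through which acetylcholine promotes insulin secretion, was at 10.63, 10.75 and 10.88 in knockouts 5, 6 and 7, and at 11.01, 10.86, 10.52 and 10.67 in controls 1 to 4 (probe set 6810961). The controls spanned the knockout samples on both sides. The difference of -0.01 (SE 0.13) had a 95% interval of -0.32 to 0.29 (limma, adjusted p = 0.972). It was -0.18 (SE 0.12, adjusted p = 0.951) without controls 3 and 4, and after quantile normalization -0.21.

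Sstr3, a somatostatin receptor that couples to inhibitory G proteins, was at 8.66, 9.04 and 9.19 in knockouts 5, 6 and 7, and at 9.07, 9.00, 9.03 and 8.75 in controls 1 to 4 (probe set 6837023). The highest and the lowest sample were both knockouts. Knockout islets averaged 8.96 ± 0.27 (SD, n = 3) and control islets 8.96 ± 0.15 (SD, n = 4), with a difference of 0.0003 (SE 0.15), a 95% interval of -0.34 to 0.34 and an adjusted p of 0.999 (limma). Sst, which encodes its ligand somatostatin, differed by -0.01 (SE 0.09). The Sst probe set ranked at percentile 99.99 of all genes by mean value, so that difference may be understated.

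**Figure D2:**
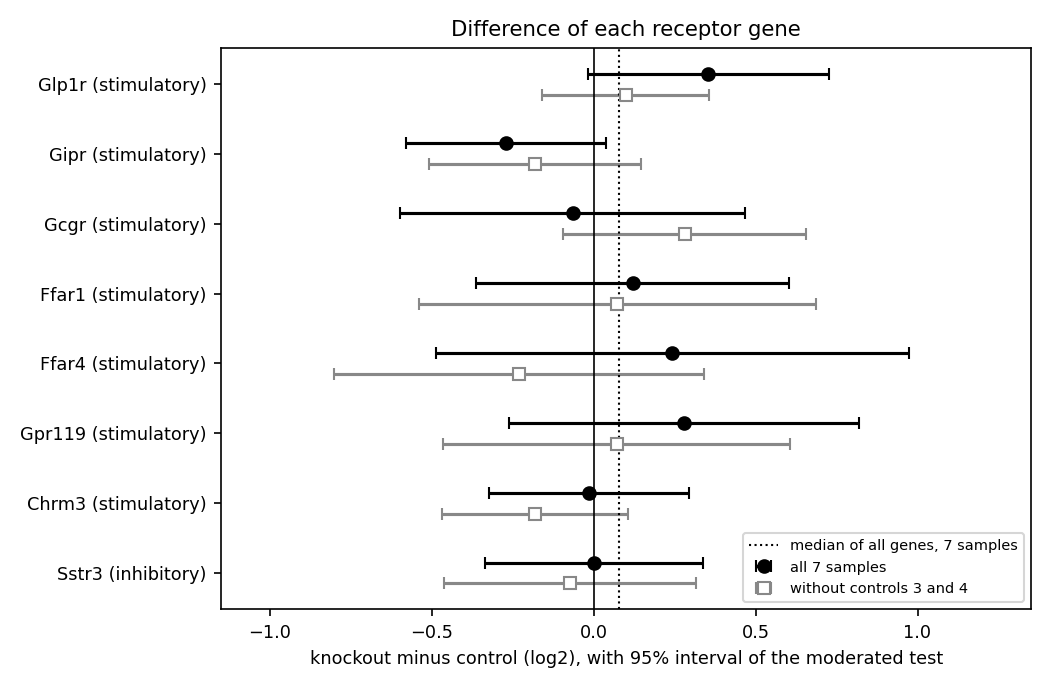
Difference of each receptor gene, knockout minus control on the log2 scale (horizontal axis), with its 95% interval from limma, over all 7 samples (filled) and without controls 3 and 4 (open); the dotted line is the median of all genes, 0.08. Every interval spans 0, and the Gcgr and Ffar4 points lie on opposite sides of 0 in the 2 fits.

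Stimulatory receptors could be set against only 1 inhibitory receptor. Among the 7 stimulatory members 4 differences were positive and 3 negative. Their median was 0.12, against 0.0003 for Sstr3 and 0.08 for all genes. Their mean level was 9.40, 9.37 and 9.34 in knockouts 5, 6 and 7, and 9.48, 9.28, 9.16 and 9.19 in controls 1 to 4, so that control 1 was above and the other 3 controls were below every knockout. The stimulatory mean less the Sstr3 value in the same sample was 0.74, 0.33 and 0.15 in knockouts 5, 6 and 7, and 0.41, 0.28, 0.13 and 0.44 in controls 1 to 4, with overlap of the groups. These class values are descriptions without a test. Without controls 3 and 4 the stimulatory median was 0.07 and Sstr3 differed by -0.07, and without Ffar4 the stimulatory median over all samples was 0.05.

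Samples in which some members stood apart also stood apart in other genes, chosen here after their values had been seen. Ffar4 was low in knockout 7 and in controls 3 and 4. In these samples Rbp4, a delta cell marker, was at 11.55, 11.46 and 11.39, against 11.92 to 12.11 in the other 4. The mean of the delta cell list (5 of 5 genes measured) includes Rbp4, so it is not separate from that gene. It was lowest in these 3 samples, at 10.17, 10.25 and 10.25, against 10.28 to 10.37 in the other 4. Sst was at 13.60, 13.61 and 13.55 there, against 13.63 to 13.72, and Ghsr at 8.08, 8.19 and 8.10, against 8.23 to 8.72. The other genes of the list went differently. Hhex was at 7.21, 7.81 and 7.82 in these samples, against 7.22 to 7.36, and so highest in controls 3 and 4. Casr was at 10.39, 10.18 and 10.40, against 9.92 to 10.38. By genotype the list mean was 10.17 to 10.37 in knockout and 10.25 to 10.33 in control islets. Gcgr was highest in knockout 7 and controls 3 and 4, where the mean of 15 immediate early genes, a class induced quickly by stimulation or stress, was 10.72, 11.06 and 11.01, against 9.68 to 10.42 in the other 4. Glp1r was lowest in controls 3 and 4, where the mean of 17 heterotrimeric G protein genes was 9.71 and 9.76, against 9.98 to 10.12 in the other 5. Among the beta cell markers Ins2 was also lowest there, at 12.79 and 12.85 against 13.09 to 13.22, and so was G6pc2, at 13.02 and 12.81 against 13.36 to 13.66. Slc30a8 was instead highest in controls 3 and 4, at 12.92 and 12.86 against 12.46 to 12.66. The mean of the 9 measured beta cell markers was 12.12 and 12.02 there, against 12.02 to 12.26 in the other 5. The part of these genes in the receptor values was not tested.

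**Figure D3:**
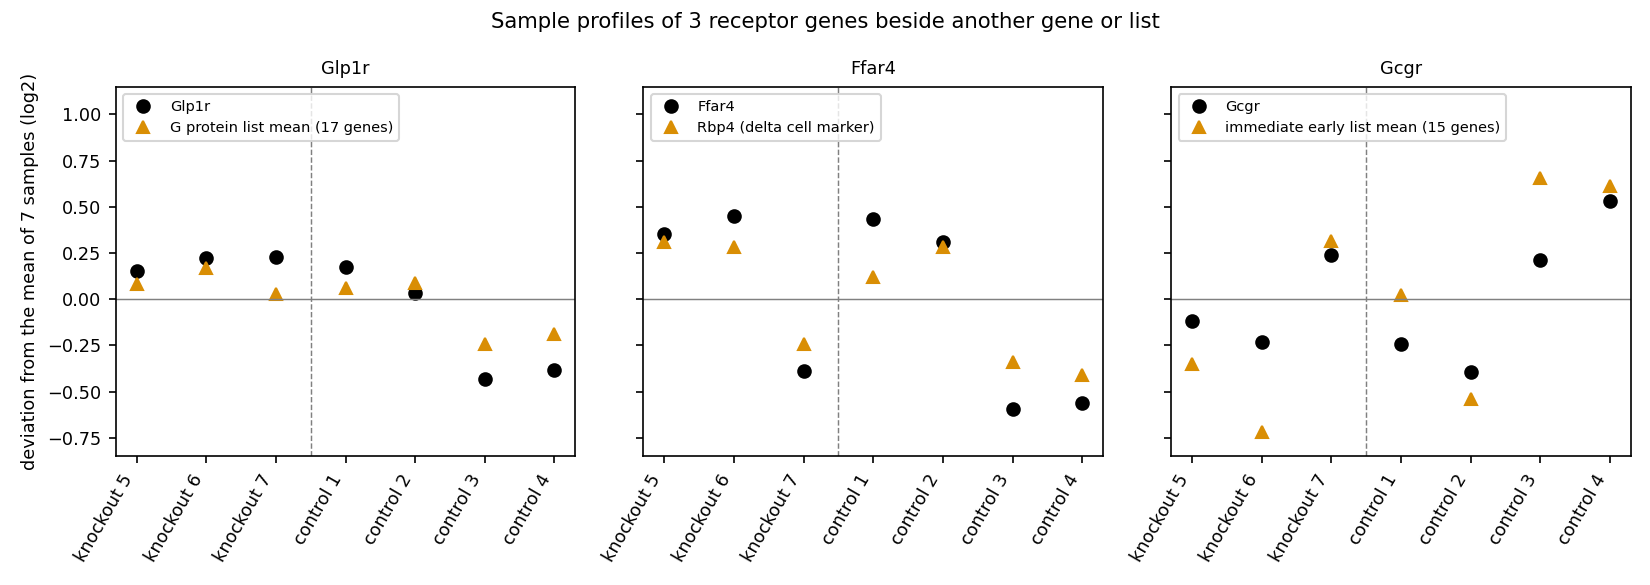
Deviation of each sample from the mean of the 7 samples (log2, vertical axis) for Glp1r, Ffar4 and Gcgr (circles), each beside another gene or the mean of a gene list (triangles), with knockout samples left of the dashed line and controls right of it. Ffar4 and Rbp4 are both below the mean in knockout 7, control 3 and control 4, and Gcgr and the immediate early genes are both above it there.

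As whole lists, markers of other cells overlapped between the groups over all 7 samples. The alpha cell mean (6 of 9 genes measured) was 9.92 to 10.39 in knockout and 9.74 to 10.21 in control islets. Within it Pou3f4 differed by 1.20 (SE 0.39, limma, adjusted p = 0.362), with overlap. The other measured alpha cell genes differed by -0.12 to 0.22. The acinar mean (7 of 10 measured, among them Ctrb1 and Cpa1) was 8.90 to 9.64 in knockout and 8.32 to 9.63 in control islets, lowest in control 4. The endothelial mean (8 of 8 measured) was 8.63 to 8.86 in knockout and 8.78 to 9.19 in control islets, and Kdr, a receptor of vascular growth factor, differed by -0.45 (SE 0.17, limma, adjusted p = 0.362). Of the 8 endothelial genes 7 were below 0, with a median of -0.19, and 2 had an unadjusted p under 0.05, where 2.14% of all genes were lower by that measure. The endothelial means did separate without controls 3 and 4, at 8.63 to 8.86 in knockouts against 9.19 and 8.99 in controls 1 and 2. All 8 genes were then below 0, with a median of -0.33, and 4 had an unadjusted p under 0.05, as 4.73% of all genes had in either direction. The macrophage means separated narrowly in that comparison too, at 6.13 to 6.24 in knockouts against 6.25 and 6.38 in controls 1 and 2. Of the 6 macrophage genes, however, 3 were then above 0 and 3 below, with a median of -0.03. Csf1r was at -0.66 and Cd68 at -0.26, and the others lay nearer to no difference. The part of these cells in the receptor values was not tested. Over all samples duct (3 of 6), macrophage (6 of 7), mesenchymal (8 of 8), neural (4 of 6) and PP cell (3 of 3) means overlapped between the groups too.

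Other islet receptors likewise gave 0 calls over all genes. Among 16 further measured receptors listed as stimulatory, 8 differences were positive and 8 negative, their median was -0.001, and 1 gene had an unadjusted p under 0.05, on the higher side, where 11.6% of all genes were. This was Ffar2, a receptor of short-chain fatty acids. It was at 7.94, 8.05 and 8.32 in knockouts 5, 6 and 7, and at 7.81, 7.22, 7.70 and 7.93 in controls 1 to 4, so that all knockouts lay above all controls, though knockout 5 was only just above control 4. Of all genes 8.99% were higher without overlap. The Ffar2 difference was 0.44 (SE 0.18, limma, adjusted p = 0.363), and 0.59 without controls 3 and 4. Ffar2 couples to both Gq and inhibitory G proteins, so its placing in the stimulatory list is a simplification. Over all samples Vipr2, a receptor of vasoactive intestinal peptide and PACAP, differed by 0.36 (SE 0.23), Mc4r, a melanocortin receptor, by -0.27 (SE 0.14) and Chrm1, another Gq-coupled muscarinic receptor, by -0.23 (SE 0.15). Vipr2 was at 0.12, Mc4r at -0.12 and Chrm1 at -0.32 without controls 3 and 4.

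Of 16 measured inhibitory receptors other than Sstr3, 12 differed upward and 4 downward. Over all genes 68.4% differed upward, with a median of 0.08. The median difference of the 16 receptors was 0.06, and 0 of them had an unadjusted p under 0.05. The named genes that follow are from these 16. Chrm2, an inhibitory muscarinic receptor, had the smallest p, with a difference of 0.31 (SE 0.16, limma, adjusted p = 0.390). Adra2c, an adrenergic receptor of the same subfamily as Adra2a, differed by 0.24 (SE 0.15), Htr1d, a serotonin receptor, by 0.16 (SE 0.13) and Npy1r, a receptor of neuropeptide Y, by -0.21 (SE 0.20). The positive and negative counts were 8 and 8 without controls 3 and 4, and Adra2c was then at 0.16.

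Downstream of the receptors, G protein and cyclic AMP genes gave 0 calls in the same fit. For 13 of 17 G protein subunits the difference was positive, as it was for 68.4% of all genes. The median of these 17 was 0.16 over all samples and -0.01 without controls 3 and 4. Gnb4 differed by 0.30 (SE 0.10) and Gng7 by 0.37 (SE 0.14), both without overlap and with an adjusted p of 0.362 (limma). Gnb5, a beta subunit that pairs with RGS proteins, was also higher without overlap, by 0.19 (SE 0.09), and Gnb2, another beta subunit, named after its values were seen, was lower without overlap, by -0.19 (SE 0.09). These are 3 of 17 higher and 1 of 17 lower, beside 8.99% and 1.94% of all genes. Without controls 3 and 4 Gnb4 differed by 0.24, Gnb5 by 0.19, Gng7 by 0.22 and Gnb2 by -0.12. Gnai3, an inhibitory alpha subunit, differed by 0.63 (SE 0.30), or by 0.16 without these controls. Of 24 genes of cyclic AMP production and signalling 17 differed upward, beside the same 68.4% of all genes, and 7 downward. The median difference was 0.06. Prkar2a and Prkar2b, regulatory subunits of protein kinase A, differed by 0.60 (SE 0.26) and 0.36 (SE 0.16). Adcy6, an adenylyl cyclase, differed by -0.42 (SE 0.20) and Pde1c, a calcium-dependent phosphodiesterase that breaks down cyclic nucleotides, by -0.41 (SE 0.15). Without controls 3 and 4 Prkar2a differed by 0.17, Prkar2b by 0.20, Adcy6 by -0.18 and Pde1c by -0.42.

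The phospholipase C list leaned the other way from most genes, though no member passed. For 9 of its 10 measured genes the difference was negative. The median was -0.17, and for 3 of them the unadjusted p was under 0.05, as it was in the lower direction for 2.14% of all genes. Itpr3, a receptor of inositol trisphosphate that releases stored calcium, was at 8.58, 8.79 and 8.94 in knockouts 5, 6 and 7, and at 9.08, 9.03, 9.22 and 9.12 in controls 1 to 4, without overlap. It was the 1 gene of the 10 that was lower without overlap, where 1.94% of all genes were. Its difference was -0.34 (SE 0.11, limma, adjusted p = 0.362). Itpr2, of the same family, differed by -0.53 (SE 0.19), Prkce, a protein kinase C, by -0.42 (SE 0.16) and Dgkz, a diacylglycerol kinase, by -0.25 (SE 0.12). Without controls 3 and 4 Itpr3 differed by -0.29, Itpr2 by -0.34, Prkce by -0.24 and Dgkz by -0.25. The list then had 8 of 10 negative differences and a median of -0.13. At an unadjusted p under 0.05 there were 0 of its genes, beside 4.73% of all genes in that comparison.

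**Figure D4:**
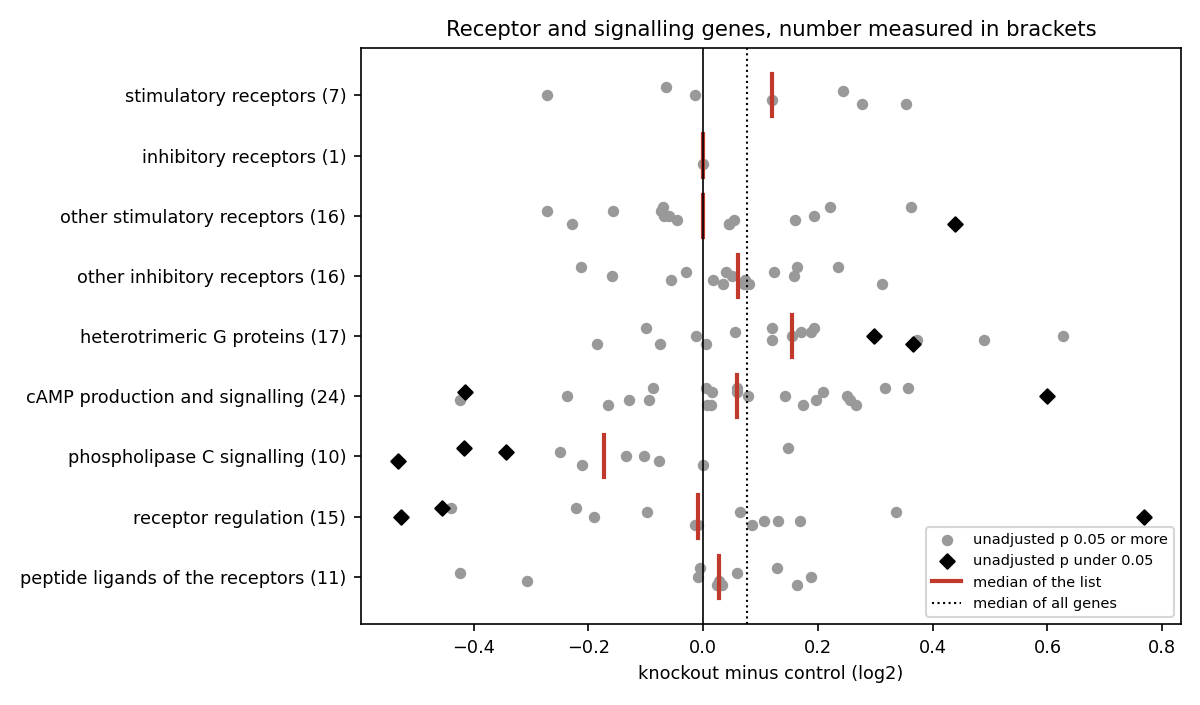
Differences, knockout minus control (log2, horizontal axis), of each measured gene in the receptor and signalling lists (rows, with a small vertical offset to separate points), with the median of each list as a bar, the median of all genes as a dotted line and genes at an unadjusted p under 0.05 as diamonds. Of the 10 phospholipase C genes 9 lie left of 0, while the 7 stimulatory receptors lie on both sides.

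Genes that regulate receptors were divided. Of 15 measured, 7 differences were positive and 8 negative, with a median of -0.01. Grk3, a kinase that phosphorylates active receptors for desensitization, differed by -0.46 (SE 0.15) and Rgs9, which speeds the switching off of G proteins, by -0.53 (SE 0.19). Rgs2, of the same family and known to be induced by cyclic AMP, was at 11.63, 11.33 and 10.92 in knockouts 5, 6 and 7, and at 11.07, 10.96, 10.18 and 9.89 in controls 1 to 4. Its difference of 0.77 (SE 0.31, limma, adjusted p = 0.362) was the largest of the list, and was 0.28 without controls 3 and 4. Rgs7 differed by 0.34 (SE 0.15). In that comparison without controls 3 and 4 Grk3 differed by -0.30, Rgs9 by -0.24 and Rgs7 by 0.16. Of 11 ligand genes 0 had an unadjusted p under 0.05. Npy, which encodes neuropeptide Y, differed by -0.42 (SE 0.27), Pyy by 0.19 (SE 0.20), Ppy by 0.16 (SE 0.11) and Adcyap1, which encodes PACAP, by 0.13 (SE 0.14). Without controls 3 and 4 Npy was at -0.55, Pyy at -0.01, Ppy at 0.06 and Adcyap1 at 0.13.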

How the data were processed

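RNA of 3 knockout and 4 control islet samples was measured on Affymetrix arrays. Per the submitters' processing notes, the authors made the deposited log2 values with RMA, for each transcript-level probe set on each array, in Affymetrix Expression Console. That they are log2 was judged from their range (2.50 to 14.3, array medians 7.11 to 7.29). The version and settings of that software and a genome build are not stated there. Of 23238 probe sets, 14939 had 1 gene symbol, giving 14807 genes. Groups and numbers came from the sample titles.

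The comparison used limma 3.58.1 under R 4.3.3 (no covariates, no filter on dim genes, two-sided, Benjamini-Hochberg over all genes, threshold 0.05), and the code was tested on simulated data. The members and the lists were chosen with earlier results of these data known. The genes named were all members, the deleted genes, the 4 genes of smallest p in each signalling list and the 3 brightest of each marker list. Others were named after their values were seen. Alternatives were a filter on dim genes, the mean of a gene's rows, quantile normalization, a robust and trended prior, centring each array, an unmoderated test, array weights, testing every probe set, each sample left out, both of controls 3 and 4 left out, and Ffar4 left out of its class.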

Additional observations from a re-analysis of the deposited data

How the results depend on the processing

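No member passed the test under any of the 16 alternatives, with smallest adjusted p values between 0.173 and 0.951, and Gipr was too dim to be tested under the filter at the median level. Glp1r, Gpr119 and Gipr kept their sign in every alternative run for them. With single samples left out Glp1r differed by 0.26 to 0.46, Gpr119 by 0.12 to 0.52, Gipr by -0.35 to -0.17, Ffar4 by 0.08 to 0.51, Ffar1 by -0.031 to 0.28, Gcgr by -0.21 to 0.10, Chrm3 by -0.096 to 0.066 and Sstr3 by -0.11 to 0.15. The stimulatory median then ran from -0.031 to 0.28. Quantile normalization turned Ffar1 to -0.023 and Sstr3 to -0.12, centring turned Sstr3 to -0.023, and array weights turned Gcgr to 0.045 and Sstr3 to -0.065. Chrm3 kept its sign with quantile normalization (-0.21), with array weights (-0.14) and without controls 3 and 4 (-0.18). It turned to 0.0445 without knockout 5, 0.066 without control 1 and 0.0162 without control 2. Leaving out controls 3 and 4 turned Gcgr to 0.28, Ffar4 to -0.23 and Sstr3 to -0.073. The cause was not tested. The number of genes at an unadjusted p under 0.05 was 2028 in limma, 1104 in the unmoderated test, 700 without controls 3 and 4, and 569 to 3122 with single samples left out (569 with knockout 5 omitted, 852 with knockout 6 omitted, 3122 with control 1 omitted, 1212 with control 3 omitted, 1024 with control 4 omitted). Of these genes 84.4% were higher over all samples, 64.3% with quantile normalization and 74.1% without controls 3 and 4. At an unadjusted p under 0.05, Glp1r was past without control 1 or control 2 and Gpr119 without knockout 7. No paired analysis was possible because the groups share no replicate numbers. With 3 and 4 arrays the 95% intervals of the members reach 0.29 to 0.97 above 0 except for Gipr, whose upper bound is 0.04. Their lower bounds run from -0.60 for Gcgr to -0.02 for Glp1r. Each interval holds 0 and differences of both signs, so these tests do not show that the receptors are unchanged.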
